A study of Homo sapiens with 6 samples.

Results

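LCP1 encodes L-plastin, an actin-bundling protein, and is described here together with 9 other genes whose products bundle or cross-link actin filaments or bind along them: the plastins PLS3 and PLS1, FSCN1, ACTN1, ACTN4, EPS8, VIL1, ESPN and CORO1A. The 10 genes were taken by gene symbol, out of 18417 symbols on the array that stand alone on a transcript cluster (the set of probes summarised to 1 value), and each had exactly 1 such cluster. LCP1 was picked because earlier results on these arrays showed it among the highest differences of the brain-selected line from its parent, so its levels and differences are given as a description with no test. The other 9 were added by function, with results of the same arrays known.

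The arrays hold RNA from 3 related human breast cancer lines, 2 arrays each. 231BrM-2a is a derivative of MDA-MB-231 selected for metastasis to brain, 231BoM-1833 is a derivative selected for metastasis to bone, and MDA-MB-231 is the unselected parental line, of mesenchymal and triple-negative character. All 3 lines were grown in the same medium with serum, with no treatment named, and in all of them a magnetic sort kept the cells without CD24 and with CD44 and ESA, the product of EPCAM, a surface profile that enriches for cancer stem cells. The study set the sorted cells of both metastatic derivatives against sorted parental cells. The labels call the replicates biological but do not tell if each had its own culture and its own sort, so any p-value here rests on a spread that may be technical.

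Actin filaments become stiff bundles when a protein with a pair of actin-binding sites, or a dimer with one site on each subunit, holds neighbouring filaments together. Plastins and fascin pack filaments tightly into filopodia and microvilli, while alpha-actinins space them loosely in stress fibres and focal adhesions. LCP1 is normally made by blood cells and appears in many carcinoma lines, PLS3 is made by most solid tissues, and PLS1 belongs to the brush border of intestine and kidney.

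The 250 bases upstream of the RefSeq start (build GRCh38.p14, from RefSeq; found for 6 of the 10 genes) are shown for the 3 plastin genes, because their levels did not move together, and for ACTN1, because it was the tested gene called higher in 231BrM-2a (adjusted p under 0.05) against both other lines. They run 5′ to 3′ on the gene's strand, and capitals mark the GC box letters GGGCGG and the TATA box letters TATAAA on either strand, which may overlap.
LCP1, chr13:46182178-46182427, strand -: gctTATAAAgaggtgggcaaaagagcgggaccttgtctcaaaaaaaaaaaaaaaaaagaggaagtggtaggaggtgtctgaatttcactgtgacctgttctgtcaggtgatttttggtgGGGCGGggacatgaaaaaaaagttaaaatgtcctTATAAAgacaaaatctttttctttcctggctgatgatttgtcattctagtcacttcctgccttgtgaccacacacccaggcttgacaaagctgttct
PLS3, chrX:115560924-115561173, strand +: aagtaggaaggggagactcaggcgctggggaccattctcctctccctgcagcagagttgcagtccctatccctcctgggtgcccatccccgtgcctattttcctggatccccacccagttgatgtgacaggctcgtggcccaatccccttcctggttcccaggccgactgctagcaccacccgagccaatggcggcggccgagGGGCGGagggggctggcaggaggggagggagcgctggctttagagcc
PLS1, chr3:142596143-142596392, strand +: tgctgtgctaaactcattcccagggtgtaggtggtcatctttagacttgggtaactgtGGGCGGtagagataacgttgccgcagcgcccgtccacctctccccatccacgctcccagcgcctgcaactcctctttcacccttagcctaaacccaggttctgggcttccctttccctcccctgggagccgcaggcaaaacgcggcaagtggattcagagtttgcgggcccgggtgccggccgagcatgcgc
ACTN1, chr14:68979303-68979552, strand -: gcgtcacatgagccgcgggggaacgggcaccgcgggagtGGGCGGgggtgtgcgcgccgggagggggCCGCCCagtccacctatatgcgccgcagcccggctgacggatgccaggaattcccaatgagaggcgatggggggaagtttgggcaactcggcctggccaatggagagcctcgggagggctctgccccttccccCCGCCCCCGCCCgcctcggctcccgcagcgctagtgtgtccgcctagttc
The LCP1 stretch held 41.2% G and C and 2 CG pairs, against a median of 58% and 11 over 35116 such stretches. The PLS3, PLS1 and ACTN1 stretches held 65.2%, 60.8% and 72.0% G and C. TATAAA was present in the LCP1 stretch, starting 247 and 97 bases before the start, and in 10.7% of all stretches. No other of the 6 genes had it. GGGCGG was present in all 6 and in 42.6% of all stretches. An AP-1 site (TGANTCA, 6.57% of all stretches) was found only in ACTN4 among the 6, and a GAS element (TTCNNNGAA, 6.57%), an ISRE core (3.02%), an ETS core (CCGGAAGT, 3.42%) and a CArG box (1.16%) in none of them, on either strand. These matches describe the letters of this window only.

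Values are log2 expression values normalised by the RMA method, in which 1 unit is a 2-fold difference. The median per array lay between 6.58 and 6.64, replicate arrays correlated across clusters at r = 0.9935 to 0.9959, and arrays of different lines at 0.9666 to 0.9832; clusters are not independent of each other. With 2 arrays per line, precision is low throughout. The level of one gene cannot be set against that of another on such arrays, so only lines are compared. VIM, a mesenchymal filament gene, stood at 12.30 to 12.92 and CDH1, the epithelial cadherin gene, at 5.19 to 5.96 over the 6 arrays. The epithelial keratin genes KRT8 and KRT18 stood at 11.45 to 12.33 and 11.42 to 12.14, and CDH2, the mesenchymal cadherin gene, at 5.33 to 5.60. The character of the cells was not tested with these levels. In such bulk samples, fewer cells that express a gene and less of its RNA per cell cannot be told apart. Both comparisons with MDA-MB-231 use the same 2 parental arrays. Tests come from limma with Benjamini-Hochberg adjustment over 21214 named clusters, called where the adjusted p was under 0.05.

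LCP1 stood at 12.99 and 13.06 on the 2 arrays of 231BrM-2a, at 9.55 and 8.63 on those of 231BoM-1833, and at 7.47 and 7.28 on those of MDA-MB-231. The 3 lines did not overlap, and the order was 231BrM-2a above 231BoM-1833 above MDA-MB-231. The level in 231BrM-2a was 50.2 times that in MDA-MB-231 (log2 difference 5.65) and 15.3 times that in 231BoM-1833 (3.93). The level in 231BoM-1833 was 3.29 times that in MDA-MB-231 (1.72). By size, these log2 differences ranked 2, 12 and 83 among 18417 genes, a rank that follows from how the gene was picked.

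The spread of LCP1 between replicates was uneven. Its SD was 0.0561 in 231BrM-2a, 0.649 in 231BoM-1833 and 0.133 in MDA-MB-231 (n = 2 each), and the pooled SD of 0.384 was larger than that of 99.1% of named clusters. Replicate 1 of 231BoM-1833 was 0.92 above replicate 2. The sort marker EPCAM had a gap in the same direction there, at 8.32 and 7.28 in replicates 1 and 2 of 231BoM-1833. So did CD24 at 6.49 and 5.76, and CD44 at 12.17 and 11.82. Other genes described here shared the direction, with gaps of 0.45 for EPS8, 0.36 for PLS3 and 0.31 for FSCN1. VIL1 (-0.18) and ESPN (-0.13) went the other way. The part of the sort in the LCP1 gap was not tested. Without replicate 1 of 231BoM-1833 the log2 difference of LCP1 from MDA-MB-231 was 1.26, and without replicate 2 it was 2.18. That between 231BrM-2a and 231BoM-1833 ranged from 3.47 to 4.39 as single arrays were left out, and that between 231BrM-2a and MDA-MB-231 from 5.56 to 5.74.

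**Figure D1:**
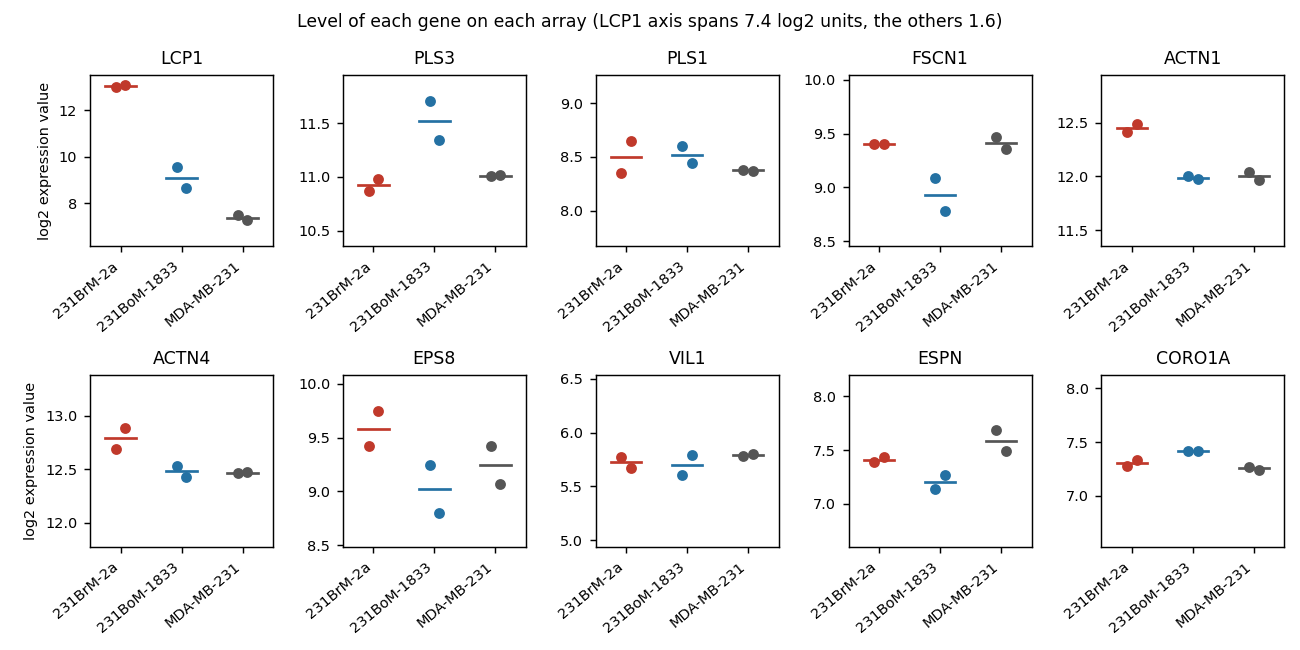
Log2 expression value of the 10 genes on each of the 6 arrays, with 231BrM-2a on the left, 231BoM-1833 in the middle and MDA-MB-231 on the right of each panel; points are single arrays and bars are line means. The LCP1 axis spans more than those of the other genes, which share 1 span, and only LCP1 shows a step of several log2 units, with 12.99 and 13.06 in 231BrM-2a.

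Of the 9 genes other than LCP1, 1 rose and 0 fell in 231BrM-2a against MDA-MB-231, where 19.0% of all named clusters were called (10.5% higher and 8.59% lower). In 231BoM-1833 against MDA-MB-231, 1 rose and 1 fell, with 15.8% of all clusters called (8.43% higher and 7.38% lower). Between 231BrM-2a and 231BoM-1833, 2 were higher and 1 lower in 231BrM-2a, with 23.5% called (12.5% higher and 11.0% lower). The arrays of the groups did not overlap for 6, 5 and 7 of the 9 in these 3 comparisons, beside 63.8%, 59.8% and 60.1% of all clusters. The median log2 difference of the 9 was 0.051, -0.015 and 0.21, and that of all named clusters -0.050, -0.052 and 0.013. The largest difference of any of the 9 was the 1.52-fold one of PLS3 between the derivatives. With an unadjusted p under 0.05, limma gave 2 higher and 0 lower in 231BrM-2a against MDA-MB-231. It gave 1 and 2 in 231BoM-1833 against MDA-MB-231, and 4 and 1 in 231BrM-2a against 231BoM-1833. The share of all clusters at an unadjusted p was not counted, so no such count here can be set against it.

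PLS3, the plastin of most solid tissues, went the other way from LCP1 between the derivatives. It stood at 10.87 and 10.98 in 231BrM-2a, at 11.71 and 11.34 in 231BoM-1833, and at 11.01 and 11.02 in MDA-MB-231. Both arrays of 231BoM-1833 lay above all others, and both of 231BrM-2a below all others. PLS3 was lower in 231BrM-2a than in 231BoM-1833 by a log2 difference of -0.60 ± 0.13 (SE, limma adjusted p = 0.0104), which is 1.52-fold. That call was lost without replicate 1 of 231BrM-2a (adjusted p = 0.0756). PLS3 rose in 231BoM-1833 against MDA-MB-231 by 0.51 ± 0.13 (adjusted p = 0.0322), a call lost when any array other than replicate 2 of 231BoM-1833 was left out (adjusted p = 0.0526 to 0.144) or when unnamed clusters entered the adjustment (0.0802). Without replicate 1 of 231BoM-1833 the difference was 0.33. Against MDA-MB-231, the difference in 231BrM-2a was -0.09 (95% interval -0.39 to 0.21, adjusted p = 0.681), beside 5.65 for LCP1.

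PLS1, the brush border plastin, stood at 8.35 and 8.65 in 231BrM-2a, at 8.60 and 8.44 in 231BoM-1833, and at 8.38 and 8.37 in MDA-MB-231. The derivatives overlapped with each other, and 231BrM-2a overlapped with MDA-MB-231. Its log2 difference was 0.12 in 231BrM-2a against MDA-MB-231 (95% interval -0.16 to 0.41, adjusted p = 0.54) and 0.14 in 231BoM-1833 against MDA-MB-231 (-0.14 to 0.43, adjusted p = 0.471). Between 231BrM-2a and 231BoM-1833 it was -0.02 (-0.31 to 0.26, adjusted p = 0.93). A p over the threshold does not show that the levels are equal, and these intervals hold log2 differences from -0.31 to 0.43. The plastins are paralogs, as are ACTN1 and ACTN4, and probes that could bind more than one of them were not analysed here.

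FSCN1 encodes fascin, which makes the tight parallel bundles of filopodia. It stood at 9.41 on both arrays of 231BrM-2a, at 9.09 and 8.78 in 231BoM-1833, and at 9.47 and 9.35 in MDA-MB-231. Both 231BoM-1833 arrays lay below all the others, and 231BrM-2a lay between the 2 parental arrays. FSCN1 fell in 231BoM-1833 against MDA-MB-231 by 0.48 on the log2 scale (SE 0.125, limma adjusted p = 0.0331), which is 1.39-fold. It was higher in 231BrM-2a than in 231BoM-1833 by 0.47 ± 0.13 (adjusted p = 0.024), also 1.39-fold. Against MDA-MB-231, the difference in 231BrM-2a was -0.0063 (95% interval -0.29 to 0.28, adjusted p = 0.98).

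The FSCN1 calls lay close to the threshold, and most were lost with fewer arrays while the difference stayed about as large. The call in 231BoM-1833 against MDA-MB-231 was lost without any one array except replicate 1 of 231BoM-1833 (adjusted p = 0.0579 to 0.151), and with clusters that have no symbol (0.0794). The 231BrM-2a arrays enter that comparison only through the spread shared by the lines, not through its difference. Without either of them the difference was still -0.48. The call between the derivatives was lost without replicate 2 of 231BoM-1833 (0.115), replicate 1 of 231BrM-2a (0.105) or replicate 2 of 231BrM-2a (0.107), and with clusters that have no symbol (0.0644), with a difference of 0.47 without either 231BrM-2a array. Without replicate 2 of 231BoM-1833 the FSCN1 differences were -0.32 from MDA-MB-231 and 0.32 between 231BrM-2a and 231BoM-1833.

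ACTN1, a non-muscle alpha-actinin of stress fibres and focal adhesions, was the 1 tested gene called higher in 231BrM-2a at an adjusted p under 0.05 against both other lines. It stood at 12.42 and 12.48 in 231BrM-2a, at 12.00 and 11.98 in 231BoM-1833, and at 12.04 and 11.96 in MDA-MB-231. Both 231BrM-2a arrays lay above the other 4, and the arrays of 231BoM-1833 lay within the range of MDA-MB-231. ACTN1 rose in 231BrM-2a against MDA-MB-231 by 0.45 ± 0.10 (limma adjusted p = 0.0153), which is 1.36-fold, and against 231BoM-1833 by 0.46 ± 0.10 (adjusted p = 0.0104), which is 1.38-fold. In 231BoM-1833 against MDA-MB-231 the difference was -0.01 (95% interval -0.25 to 0.22, adjusted p = 0.936). The call against MDA-MB-231 was lost without replicate 1 of 231BrM-2a (adjusted p = 0.0632), replicate 2 of 231BrM-2a (0.109), replicate 1 of MDA-MB-231 (0.0543) or replicate 2 of MDA-MB-231 (0.109), with differences between 0.41 and 0.49. The call between the derivatives was lost without replicate 2 of 231BrM-2a (0.0788).

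ACTN4, the second non-muscle alpha-actinin, stood at 12.69 and 12.88 in 231BrM-2a, at 12.53 and 12.43 in 231BoM-1833, and at 12.46 and 12.47 in MDA-MB-231. Both 231BrM-2a arrays lay above the other 4, and 231BoM-1833 overlapped with MDA-MB-231. The difference of 231BrM-2a from MDA-MB-231 was 0.32 (95% interval 0.07 to 0.57, adjusted p = 0.0774) and from 231BoM-1833 0.31 (0.05 to 0.56, adjusted p = 0.08). Neither passed the threshold, although both did when limma let the spread depend on intensity and down-weighted outlying clusters (adjusted p = 0.0264 and 0.0265). The 231BoM-1833 arrays differed from MDA-MB-231 by 0.01 (-0.24 to 0.27, adjusted p = 0.945).

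EPS8, which caps growing filament ends and bundles filaments with its partner BAIAP2, had arrays far apart within lines. It stood at 9.42 and 9.75 in 231BrM-2a, at 9.25 and 8.80 in 231BoM-1833, and at 9.42 and 9.07 in MDA-MB-231. The derivatives did not overlap with each other, but each overlapped with MDA-MB-231. The difference of 231BrM-2a from 231BoM-1833 was 0.56 (95% interval 0.15 to 0.98, adjusted p = 0.0547), just short of the threshold. It passed without replicate 1 of 231BoM-1833 (0.79, adjusted p = 0.0189), and with 3 other settings (adjusted p = 0.0434 to 0.0478). Against MDA-MB-231 the difference was 0.34 in 231BrM-2a (-0.08 to 0.75, adjusted p = 0.238) and -0.22 in 231BoM-1833 (-0.64 to 0.19, adjusted p = 0.435).

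ESPN encodes espin, a bundler of inner ear stereocilia and microvilli. It stood at 7.39 and 7.44 in 231BrM-2a, at 7.14 and 7.26 in 231BoM-1833, and at 7.69 and 7.49 in MDA-MB-231, with no overlap between any pair of lines. Its difference in 231BoM-1833 against MDA-MB-231 was -0.39 (95% interval -0.64 to -0.13), with an adjusted p of 0.05003 that lay just over the threshold and fell to 0.0362 with the dimmest 33.3% of clusters left out. In 231BrM-2a it was -0.18 from MDA-MB-231 (-0.43 to 0.08, adjusted p = 0.321) and 0.21 from 231BoM-1833 (-0.05 to 0.47, adjusted p = 0.233).

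VIL1 encodes villin, which bundles or severs microvillus filaments depending on calcium. It stood at 5.78 and 5.67 in 231BrM-2a, at 5.61 and 5.79 in 231BoM-1833, and at 5.79 and 5.80 in MDA-MB-231. The differences lay between -0.09 and 0.02 (adjusted p = 0.6 to 0.912), and every VIL1 value lay under the median of its array. No background level was given with these arrays, so the level below which a gene is not expressed is unknown, and differences of dim clusters may be compressed.

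CORO1A, a coronin of blood cells that binds along filaments and to the Arp2/3 complex, shares with LCP1 its usual restriction to leukocytes. It stood at 7.28 and 7.34 in 231BrM-2a, at 7.42 in each 231BoM-1833 array, and at 7.26 and 7.25 in MDA-MB-231. The lines did not overlap, yet the largest difference, 0.16 in 231BoM-1833 against MDA-MB-231 (95% interval -0.06 to 0.39), had an adjusted p of 0.293. In 231BrM-2a the difference was 0.05 from MDA-MB-231 (-0.17 to 0.28, adjusted p = 0.763) and -0.11 from 231BoM-1833 (-0.34 to 0.11, adjusted p = 0.482).

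**Figure D2:**
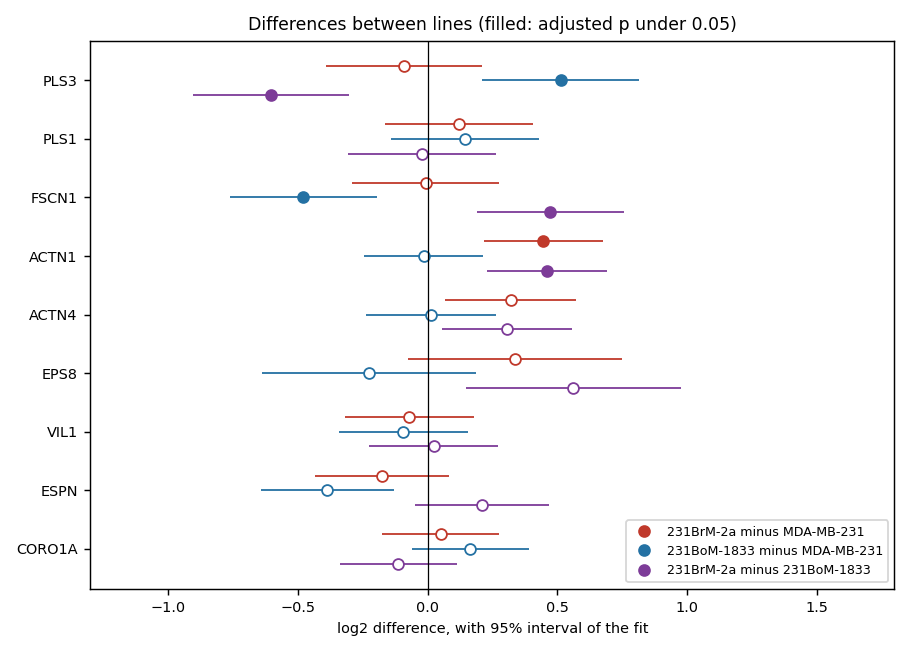
Log2 difference of the 9 tested genes in the 3 comparisons, with the 95% interval of each fit before adjustment; filled points had a limma adjusted p under 0.05. PLS3 and FSCN1 have filled points on both sides of 0, ACTN1 has 2 near 0.45, and the other 6 genes have none.

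Blood cell genes were examined beside LCP1, since leukocytes are its usual source. Of 23 leukocyte markers measured, 1 rose and 2 fell in 231BrM-2a against MDA-MB-231, where 10.5% of all named clusters were called higher and 8.59% lower. In 231BoM-1833 against MDA-MB-231, 1 rose and 1 fell, beside 8.43% and 7.38%. Their mean log2 value was 6.58 to 6.59 on the 231BrM-2a arrays, 6.62 to 6.63 on the 231BoM-1833 arrays and 6.66 to 6.69 on the MDA-MB-231 arrays. The order of means this close can turn on a single marker, such as ITGB2 with its log2 difference of -1.50 in 231BoM-1833 against MDA-MB-231. PTPRC, the common leukocyte antigen gene, stood at 3.78 and 3.65 in 231BrM-2a, at 3.68 in each 231BoM-1833 array, and at 3.86 and 3.60 in MDA-MB-231, all under the array medians. Other markers of the list stood above the medians on every array. Among them were LAPTM5 at 10.93 to 11.84, ARHGDIB at 10.93 to 11.45, CD68 at 10.88 to 11.65 and RAC2 at 10.11 to 10.60. LAPTM5, a lysosomal membrane protein gene of blood cells, rose in 231BrM-2a by 0.75 ± 0.11 (adjusted p = 0.00199). CD14, a monocyte receptor gene, fell there by 0.50 (adjusted p = 0.0195) and ITGB2, a leukocyte integrin gene, by 0.42 (0.0438); neither was called without replicate 1 of 231BrM-2a or without either MDA-MB-231 array, nor ITGB2 without replicate 2 of 231BrM-2a. CD14 rose by 0.88 in 231BoM-1833 against MDA-MB-231 (adjusted p = 0.00219), where ITGB2 was 2.82-fold lower (0.000142). In 231BrM-2a against 231BoM-1833, 2 of the 23 were higher and 3 lower, beside 12.5% and 11.0% of all clusters. CD14 differed by -1.39 and ITGB2 by 1.08 there (adjusted p = 6.52e-05 and 0.000305). Another 9 genes mark erythroid cells, platelets or endothelium. By limma, 0 of them rose and 2 fell in 231BrM-2a against MDA-MB-231, 0 rose and 1 fell in 231BoM-1833 against MDA-MB-231, and 0 were higher and 1 lower in 231BrM-2a against 231BoM-1833, with 0, 1 and 0 higher at an unadjusted p under 0.05. No share of all clusters at an unadjusted p was counted to set beside these. The part of other cells in the level of LCP1 was not tested beyond these markers.

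The genes with the profiles most like that of LCP1 were sought among 194 genes whose line means spanned at least 2 log2 units, by Pearson r over the 6 arrays. The measure rests on 3 lines of 2 arrays each, so it mostly records 231BrM-2a against the other lines and carries no p. A high r does not need the order of lines that LCP1 had: the mean of ACTN1 was lowest in 231BoM-1833. TAGLN, an actin cross-linking protein gene of smooth muscle, came first at r = 0.992, with 10.54 and 10.78 in 231BrM-2a, 8.20 and 7.70 in 231BoM-1833, and 7.31 in each MDA-MB-231 array. Its replicate 1 in 231BoM-1833 lay above replicate 2, as that of LCP1 did. It was followed by the matrix protein gene TGFBI (0.99), MID1, a ubiquitin ligase gene (0.989), and SLC7A7, an amino acid transporter gene (0.987). CYP1B1, a cytochrome gene (0.986), and MAGED1, an adaptor gene (0.983), came next. Replicate 1 of 231BoM-1833 also lay above replicate 2 for MID1 and MAGED1. The 2 replicates were nearly level for TGFBI (9.43 and 9.42), SLC7A7 (5.91 and 5.89) and CYP1B1 (8.31 and 8.33). Of the 9 other genes described here, ACTN1 (0.937) and ACTN4 (0.906) had the profiles nearest to LCP1 by the same measure, with PLS3 at -0.283, FSCN1 at 0.236 and PLS1 at 0.396. None of the 6 leading genes reached the span of LCP1: their fold of 231BrM-2a over MDA-MB-231 lay between 4.19 for MID1 and 10.2 for TAGLN, beside 50.2 for LCP1.

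**Figure D3:**
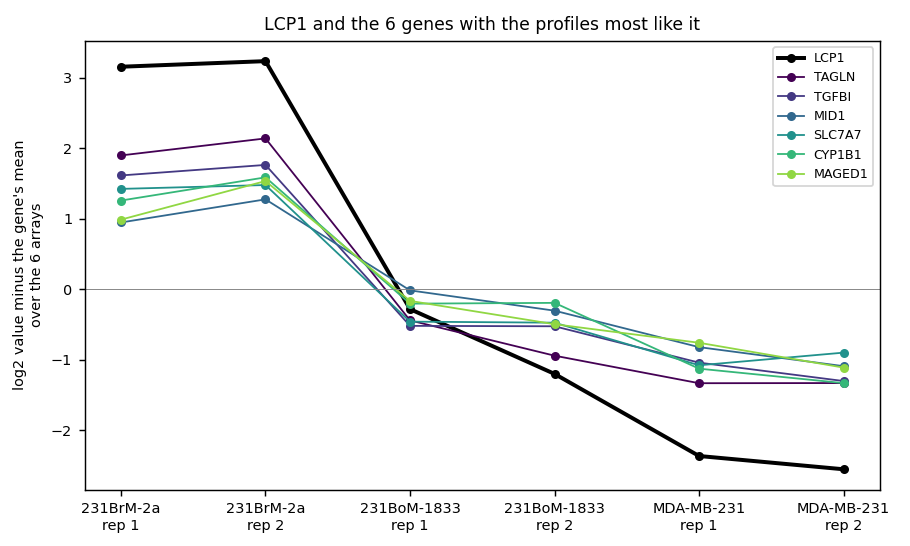
Log2 values of LCP1 and of TAGLN, TGFBI, MID1, SLC7A7, CYP1B1 and MAGED1 on the 6 arrays, each minus its own mean over the arrays; lines join the arrays of a gene and carry no order among replicates. All 7 genes lie highest on the 2 arrays of 231BrM-2a, and LCP1 has the widest span.

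LCP1 lies on chromosome 13, and the 5 nearest measured genes on either side were read in the same comparisons. Of these 10, 2 rose and 0 fell in 231BrM-2a against MDA-MB-231, 0 rose and 0 fell in 231BoM-1833 against MDA-MB-231, and 2 were higher and 0 lower in 231BrM-2a than in 231BoM-1833. These counts stand beside 19.0%, 15.8% and 23.5% of all clusters called, with median log2 differences of 0.13, -0.018 and 0.035. At an unadjusted p under 0.05, limma gave 1 higher and 1 lower in 231BoM-1833 against MDA-MB-231. It gave 2 and 1 in 231BrM-2a against MDA-MB-231, and 3 and 1 in 231BrM-2a against 231BoM-1833. The share of all clusters at an unadjusted p was not counted, so these unadjusted counts cannot be set against the shares given. ZC3H13, which encodes part of the RNA methylation machinery, stood at 9.52 and 9.60 in 231BrM-2a, 8.92 and 8.79 in 231BoM-1833, and 8.97 and 8.84 in MDA-MB-231, a rise of 0.65 ± 0.11 over MDA-MB-231 (adjusted p = 0.00367). RUBCNL, an autophagy regulator gene, rose by 0.65 ± 0.12 (adjusted p = 0.00487), but was not called without replicate 2 of 231BrM-2a (0.0504). ESD, an esterase gene, was higher in 231BrM-2a than in 231BoM-1833 by 0.53 ± 0.11 (adjusted p = 0.0081), a call lost without replicate 2 of 231BrM-2a (0.0707). CPB2 and LRRC63, the genes on either side of LCP1, differed from MDA-MB-231 in 231BrM-2a by 0.09 and 0.22 (limma adjusted p = 0.589 and 0.372). CPB2 stood at 3.96 to 4.17, LRRC63 at 4.03 to 4.54 and RUBCNL at 4.23 to 5.01, all under the array medians. ERICH6B, CBY2, SIAH3 and HTR2A also lay under the medians on every array. Differences of such dim clusters may be compressed, and whether these genes are expressed is unknown.

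**Figure D4:**
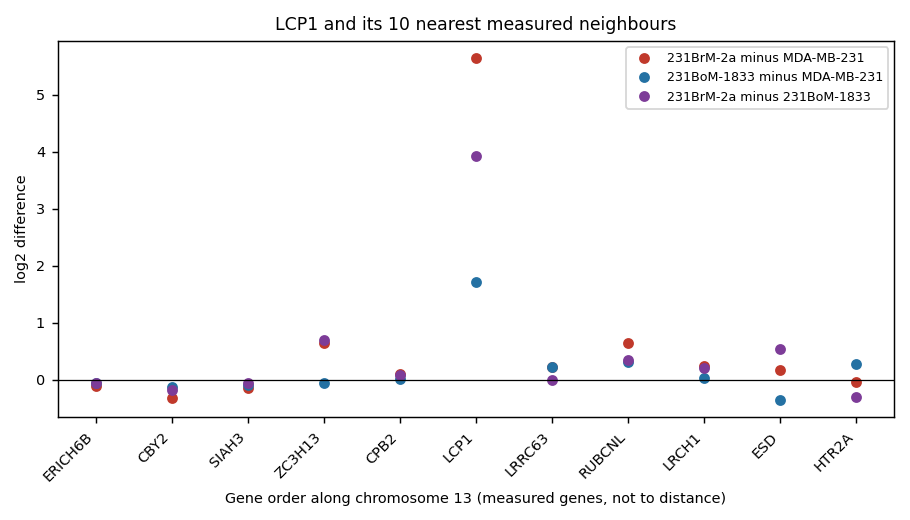
Log2 difference of LCP1 and its 10 nearest measured neighbours in the 3 comparisons, in gene order along chromosome 13 and not to distance. LCP1 reaches 5.65, 3.93 and 1.72, while the neighbours stay between -0.36 and 0.70. Most neighbours, CPB2 and LRRC63 among them, lay under the array medians, where differences may be compressed.

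Other actin genes were counted in 7 lists that hold none of the 10 genes, 173 of 189 genes with a value of their own. Other bundlers and cross-linkers had 12 of 37 higher and 3 lower in 231BrM-2a against MDA-MB-231, beside 10.5% and 8.59% of all clusters, and a median log2 difference of 0.059. The count higher was smaller when any array of either line was left out. The count over all clusters was then smaller too, here and in the other comparisons, so such falls are not particular to this list. AIF1L, an actin-bundling protein gene (3.76-fold), CALD1, the caldesmon gene (3.52-fold), and PALLD, the palladin gene (1.86-fold), had the largest differences (adjusted p = 1.97e-05, 2.73e-05 and 0.00508). In 231BoM-1833 against MDA-MB-231, AIF1L was lower by a log2 difference of -0.73 ± 0.12 (limma adjusted p = 0.00456). CALD1 was higher there by 0.47 ± 0.12 (0.0283), a call lost when unnamed clusters entered the adjustment (0.0699). Of the 37, 3 rose and 7 fell in that comparison. Those counts were 1 and 3 without replicate 1 of MDA-MB-231, 1 and 2 without its replicate 2, and 4 fell without either array of 231BoM-1833. Between 231BrM-2a and 231BoM-1833, 13 were higher and 3 lower, with 8 higher without replicate 1 of 231BrM-2a and 7 without its replicate 2. AIF1L was 6.25-fold higher there, CALD1 2.54-fold and PALLD 2.21-fold.

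The counts of the other lists are to be read beside the shares of all named clusters, 10.5% higher and 8.59% lower in 231BrM-2a against MDA-MB-231, 8.43% and 7.38% in 231BoM-1833 against MDA-MB-231, and 12.5% and 11.0% in 231BrM-2a against 231BoM-1833. When an array of a line compared was left out, the counts over all clusters fell too. List counts from those fits are therefore not to be set against these shares. Partners of alpha-actinin at focal adhesions had 4 of 29 higher and 1 lower in 231BrM-2a against MDA-MB-231, 4 higher and 2 lower in 231BoM-1833 against MDA-MB-231, and 9 higher and 1 lower in 231BrM-2a against 231BoM-1833. LPP, a LIM protein gene (3.25-fold, adjusted p = 2.73e-05), and TLN2, a talin gene (2.68-fold, adjusted p = 9.13e-05), rose in 231BrM-2a against MDA-MB-231, as ACTN1 did. LPP was also higher in 231BoM-1833 than in MDA-MB-231, by 0.65 ± 0.11 (limma adjusted p = 0.00628), where ACTN1 differed by -0.01. The 4 partners higher in 231BoM-1833 were 2 without replicate 1 of 231BoM-1833 or of MDA-MB-231, and 0 without replicate 2 of MDA-MB-231. Filopodium and EPS8-linked genes had 3 of 20 higher and 4 lower, 4 and 1, and 5 and 5 in the same 3 comparisons; the 4 higher in 231BoM-1833 were 2 without replicate 1 and 1 without replicate 2 of MDA-MB-231. The actin genes had 2 of 7 higher and 0 lower, 0 and 1, and 2 and 0, and a single limma call higher at an unadjusted p under 0.05 in the second. ACTG2, a smooth muscle actin gene, had 7.38 and 8.61 in 231BrM-2a, 6.72 and 6.37 in 231BoM-1833, and 6.40 and 6.36 in MDA-MB-231, which is 3.06-fold in 231BrM-2a over MDA-MB-231 (adjusted p = 0.00755), a call lost without replicate 2 of MDA-MB-231 (0.0606). Among Arp2/3 complex, formin and nucleation genes, CYFIP2 was 5.34-fold higher in 231BoM-1833 than in MDA-MB-231 and DAAM2 3.57-fold lower (limma adjusted p = 0.000335 and 0.00016). In 231BrM-2a against MDA-MB-231, DAAM1 was 2.42-fold higher and NCKAP1L, under the array medians, 2.15-fold lower (0.00112 and 0.00214). The genes of this list had 5 of 36 higher and 7 lower, 4 and 7, and 6 and 9. Their 5 higher in 231BrM-2a were 2 and 1 without replicates 1 and 2 of 231BrM-2a, and 3 and 2 without those of MDA-MB-231. Between the derivatives, their 6 higher ranged from 2 to 5 and their 9 lower from 3 to 8 as single arrays were left out, lowest in both without replicate 2 of 231BrM-2a. Severing, capping, monomer-binding and coronin genes had 2 of 31 higher and 2 lower, 1 and 2, and 7 and 4. GMFG, a regulator of Arp2/3 branches, was 4.45-fold higher in 231BrM-2a than in MDA-MB-231 and CORO2B 1.81-fold lower (limma adjusted p = 2.75e-05 and 0.00143). Between the derivatives, the 7 higher were 3 without replicate 2 of 231BrM-2a and 4 without any other array except replicate 1 of 231BoM-1833, and the 4 lower were 2 without replicate 1 of 231BrM-2a. At an unadjusted p under 0.05, limma gave 4 higher and 6 lower of these 31 in 231BoM-1833 against MDA-MB-231. Microvillus and brush border genes, the company of VIL1, ESPN and PLS1, had 0 of 13 higher and 1 lower, 2 and 2, and 1 and 2. In the first comparison, limma gave 3 higher and 3 lower of these 13 at an unadjusted p under 0.05. Counts at an unadjusted p are not to be set against the shares above, since the share of all clusters at that threshold was not counted.

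Over the 7 lists, 28 of 173 genes were higher and 18 lower in 231BrM-2a against MDA-MB-231, 18 and 22 in 231BoM-1833 against MDA-MB-231, and 43 and 24 in 231BrM-2a against 231BoM-1833, to be read beside the same shares of all clusters. The counts over all clusters also fell when an array of a line compared was left out, so the falls that follow are not particular to these lists. In 231BrM-2a against MDA-MB-231 the count higher was 18 without replicate 1 of 231BrM-2a, 16 without its replicate 2 and 15 without replicate 2 of MDA-MB-231, and the count lower 11 and 10 without the last 2 of these arrays. In 231BoM-1833 against MDA-MB-231 the counts were 8 and 8 without replicate 1 of MDA-MB-231, 4 and 7 without its replicate 2, and 14 were lower without replicate 2 of 231BoM-1833. Between the derivatives they were 27 and 15 without replicate 1 of 231BrM-2a, and 26 and 14 without its replicate 2.

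**Figure D5:**
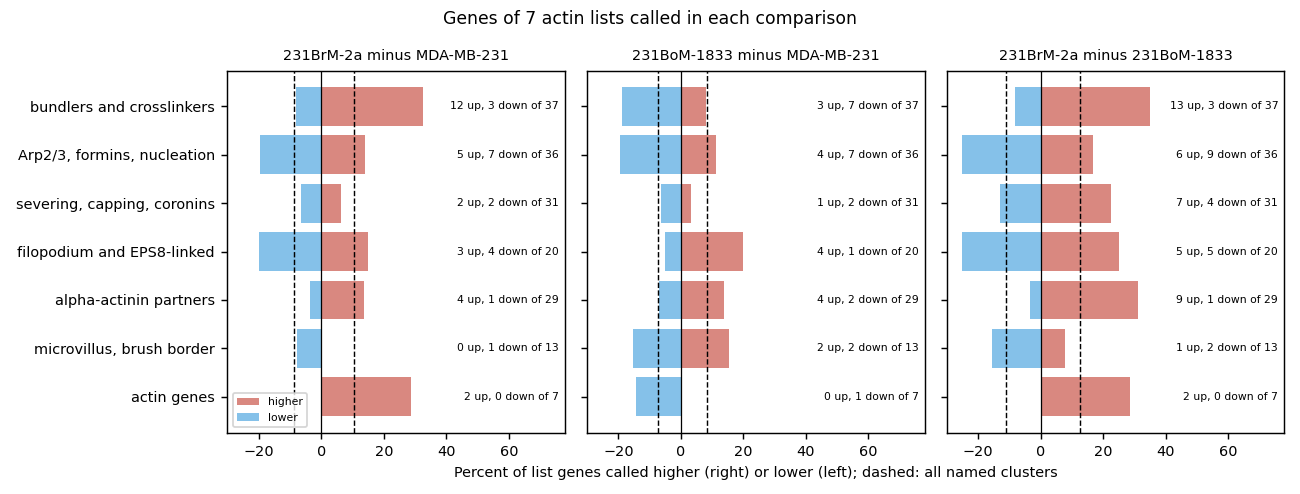
Percent of the measured genes of each actin list called higher (bars to the right) or lower (bars to the left) in the 3 comparisons, with the counts beside the bars; dashed lines mark the percent of all named clusters called. Other bundlers and cross-linkers have 12 of 37 higher in 231BrM-2a against MDA-MB-231 and 3 of 37 in 231BoM-1833 against MDA-MB-231.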

How the data were processed

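The deposited values are log2 expression values from Affymetrix Human Gene 1.0 ST arrays, 1 per transcript cluster and array, which the authors deposited after normalisation; the submitters' processing notes name RMA and Affymetrix Expression Console. RMA gives every array the same distribution of probe values, which hides any difference in overall RNA content. Of 33297 clusters, 21214 carried a gene symbol in a platform table, 19460 of them exactly 1; 12083 are unnamed here. Where several clusters carried a symbol, the brightest by its mean of the 6 arrays stood for it.

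A model with 1 mean per line was fitted in limma (version 3.58.1, under R 4.3.3; lmFit, then eBayes; two-sided) on the 6 arrays, with 3 residual and 6.06 prior degrees of freedom, and p-values were adjusted by the Benjamini-Hochberg method over the 21214 clusters. The fit was tested on simulated data. Samples were grouped by the line in their titles. The members and gene lists were chosen with earlier results of these data known. Of each list and comparison, up to 3 called genes with the largest differences were open to be named, and of the genes most like LCP1, the 6 with the highest r. Alternatives were all clusters, no dim clusters, quantile normalization, a trended and robust spread, a replicate block and leaving out each array. No gene of the 10 had more than 1 cluster, so another cluster could not be tried. Protein sequences were not used here.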

Additional observations from a re-analysis of the deposited data

Results flagged for a closer look

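The difference between the 2 derivatives passed the test for 3 of the 9 genes other than LCP1, so their 2 differences from the parental line are not alike. PLS3 had a log2 difference of -0.60 between 231BrM-2a and 231BoM-1833, FSCN1 one of 0.47 and ACTN1 one of 0.46 (limma adjusted p = 0.0104, 0.024 and 0.0104). The arrays of the 2 derivatives did not overlap for these 3 genes, nor for 60.1% of all clusters, and for called genes this largely follows from the call. As given above, each of the 3 calls was lost when some single array was left out. The fit called 23.5% of all named clusters in that comparison.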

How the results depend on the processing

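LCP1 kept its order of lines under all 11 alternatives, most of which could not have changed it. Settings of the test alone leave the line means as they are. Leaving out a single array cannot reorder lines that do not overlap. Its log2 difference ranged, as single arrays were left out, from 5.56 to 5.74 in 231BrM-2a against MDA-MB-231, from 1.26 to 2.18 in 231BoM-1833 against MDA-MB-231 and from 3.47 to 4.39 between the derivatives.

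The calls among the other 9 genes were less stable. In 231BrM-2a against MDA-MB-231, 0 to 1 were higher and 0 lower without single arrays, and 2 were higher with a trended and robust spread. In 231BoM-1833 against MDA-MB-231, 0 to 1 were higher and 0 to 1 lower without single arrays, 0 and 0 with all clusters tested, and 2 were lower with the dimmest clusters left out. Between the derivatives, 0 to 3 were higher and 0 to 1 lower without single arrays, 1 was higher with all clusters, and 4 with the trended and robust spread or with quantile normalization. The cause was not tested.

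Genes of the 7 actin lists ranged, without single arrays, over 15 to 35 higher and 10 to 21 lower in 231BrM-2a against MDA-MB-231, 4 to 18 and 7 to 20 in 231BoM-1833 against MDA-MB-231, and 26 to 40 and 14 to 21 between the derivatives. With all clusters tested, 11 were higher and 11 lower in 231BoM-1833 against MDA-MB-231. Over all clusters the ranges were 1008 to 2570 higher and 756 to 2181 lower, 613 to 1562 and 319 to 1374, and 1475 to 2538 and 1466 to 2212, with 921 lower in 231BoM-1833 against MDA-MB-231 when all clusters were tested.

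The labels number the replicates alike in the 3 lines, but nothing pairs them: deviations of same-numbered arrays from the line means correlated at -0.165, -0.162 and 0.0362. A replicate block left the called genes among the 9 at 1 higher and 0 lower, 1 and 1, and 2 and 1, and changed the called clusters to 2004 higher and 1531 lower, 1576 and 1148, and 2415 and 2149, in the order 231BrM-2a against MDA-MB-231, 231BoM-1833 against MDA-MB-231 and 231BrM-2a against 231BoM-1833. No called difference changed its sign. Differences near 0 that were not called did so for PLS1, FSCN1, ACTN1, ACTN4 and VIL1, as for PLS1 between the derivatives (-0.17 to 0.13), and for some list genes and neighbours. With 2 arrays per line, a lone array in these fits was assumed to vary like the other lines, and no detection limit was given for dim genes such as VIL1.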
